A study of Mus musculus with 12 samples.

Results

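The miR-200 family was followed through murine pulmonary endothelial cells that had been left unstimulated or exposed to a ligand of NOD1 or NOD2. Its 5 members, mmu-miR-200a, mmu-miR-200b, mmu-miR-429, mmu-miR-200c and mmu-miR-141, were taken by name from the 375 miRNA assays of the array, 1 assay for each member. The family was chosen from measured values of these same arrays, in which miR-200a-3p had drawn attention after MDP and the members varied together. Both patterns are therefore described below. The fits over all miRNAs also cover miR-200a-3p, but they use the values that led to the choice and give it no independent test.

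The cells were primary endothelial cells of the lung from male C57BL/6N wild type mice of 6 to 10 weeks, with 3 mice pooled for each isolation, separated with magnetic beads against CD144 and CD31 and grown to confluence. After 2 hours in medium low in serum, 4 samples stayed unstimulated (control), 4 received the NOD1 ligand Tri-DAP and 4 received the NOD2 ligand MDP, both at 10 μg/mL and for 6 hours. Each sample was run on a TaqMan low-density array (TLDA), a card of 384 wells that gives the threshold cycle (Ct) of each small RNA in real-time PCR. The more RNA a well holds, the lower is its Ct, 1 cycle corresponds to 1 unit on the log2 scale, and a Ct of 40 marks a well that never crossed the threshold and is called undetermined here.

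In the labels every array has its own number, from 4 to 15, and arrays are named here by group and number. The numbers 4 to 6, 7 to 9, 10 to 12 and 13 to 15 each cover 1 control, 1 Tri-DAP and 1 MDP array, in that order. The study describes independent cell isolations, but neither its methods nor the labels say which arrays share one, and these sets of 3 numbers are therefore used as a description and as an alternative in the fit. The arrays measured between 231 and 254 miRNAs, and the 174 miRNAs that no array missed averaged a Ct of 28.2 to 29.7. The small nuclear RNA U6, to which the deposited values are normalized, had a mean Ct between 18.3 and 21.6 over its 4 wells, and these wells differed within an array by an SD of 0.11 to 2.05 cycles. The endothelial miR-126-3p was measured on all 12 arrays at a Ct of 18.6 to 20.6, the earliest of the cell type markers examined.

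The miR-200 family is known for its abundance in epithelial cells, where it represses the transcription factors Zeb1 and Zeb2 and thereby keeps E-cadherin and the epithelial state in place. Zeb1 and Zeb2 in turn repress the genes of the family, a loop that is a textbook switch between epithelial and mesenchymal cells. Endothelial and mesenchymal cells generally hold little of it, and in the lung it is a marker of airway and alveolar epithelium.

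The mature sequences are shown because the family is divided in different ways by genome position and by seed, and the comparisons below follow both divisions. All 5 were found in RefSeq on GRCm38.p6, and the capitals mark the seed, bases 2 to 8 from the 5′ end, which pairs with target mRNAs. The arrays name the members without an arm, and the 3p arm, which carries the family's seed, was taken.
miR-200a-3p: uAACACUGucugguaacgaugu
miR-200b-3p: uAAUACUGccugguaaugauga
miR-429-3p: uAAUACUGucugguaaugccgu
miR-200c-3p: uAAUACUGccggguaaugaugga
miR-141-3p: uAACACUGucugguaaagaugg

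The hairpins of miR-200b, miR-200a and miR-429 lie within 1846 bases on the minus strand at chr4:156053905-156055750, overlapping the annotated gene Gm13648, and the next gene at lower coordinates is Ttll10. The hairpins of miR-200c and miR-141 lie within 477 bases on the minus strand at chr6:124717914-124718390, between Phb2 and Ptpn6, and overlap no other annotated gene. The seeds cut across these clusters. miR-200b-3p, miR-429-3p and miR-200c-3p share AAUACUG, while miR-200a-3p and miR-141-3p share AACACUG, which differs from it by the substitution C4U, written with the base of miR-200a-3p first and counted from the 5′ end. Over the 22 positions compared, the closest pairs differed at 2 positions, and these were miR-200a-3p with miR-141-3p and miR-200b-3p with miR-200c-3p, each of them across the clusters.

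The family was measurable in every sample, at late cycles. Of its 60 wells, 54 crossed the threshold, with a median Ct of 30.8 and a range from 25.6 to 35.01. The mean Ct was 29.7 for miR-200b-3p, 30.5 for miR-200a-3p, 30.8 for miR-200c-3p, 31.0 for miR-429-3p and 32.5 for miR-141-3p. Assays can differ in their efficiency, so this order is one of Ct and not of RNA copies. Set among the 320 miRNAs that were measured on at least 1 array, 36.6% came earlier by mean Ct than miR-200b-3p and 63.8% earlier than miR-141-3p, which places the family in the middle of the measured range and far behind miR-126-3p.

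miR-429-3p was the only member measured on all 12 arrays. Its Ct was 30.9, 35.01, 30.5 and 28.3 on control arrays 4, 7, 10 and 13. After Tri-DAP it was 30.9, 33.4, 29.8 and 28.8 on arrays 5, 8, 11 and 14. After MDP it was 33.2, 33.1, 30.0 and 28.3 on arrays 6, 9, 12 and 15. The groups overlapped almost completely, and in every group the array with the highest number was the earliest.

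miR-200c-3p, encoded on the other cluster with the same seed, showed nearly the same values. Its Ct was 30.9, 34.2, 30.9 and 28.3 in control cells. The Tri-DAP arrays gave 30.9, 33.4, 28.6 and 28.6. The MDP arrays gave 33.6, undetermined, 30.5 and 28.4, so that array 9 was the only array to miss it.

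miR-141-3p, the cluster partner of miR-200c-3p, was the latest member on 8 of the 8 arrays that measured all 5. Its Ct was 33.1, undetermined, 33.0 and 30.9 in control cells. On the Tri-DAP arrays it was 32.3, undetermined, 33.1 and 31.1. On the MDP arrays it was 34.2, 33.4, 33.2 and 30.8. The earliest value of each group was again that of the set 13 to 15, and both missing wells lay in the set 7 to 9.

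miR-200b-3p had a Ct of 25.6, 33.0, 28.9 and 28.6 in control cells. With Tri-DAP it was 30.2, 33.1, 29.4 and 28.3. With MDP it was 31.3, undetermined, 29.9 and 28.2. Control array 4 gave the earliest value of the whole family, and on that array it differed from miR-429-3p and from miR-200c-3p by -5.24 cycles each, while miR-200a-3p, which lies between miR-200b and miR-429 in the genome, was undetermined.

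miR-200a-3p was undetermined on control array 4 and had a Ct of 34.6, 31.0 and 28.9 on control arrays 7, 10 and 13. Tri-DAP cells gave 31.3, undetermined, 30.4 and 29.3. MDP cells gave 30.5, 30.1, 29.7 and 29.0. MDP was thus the only group in which all 4 arrays measured miR-200a-3p, and its range of Ct lay inside that of the control arrays.

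**Figure D1:**
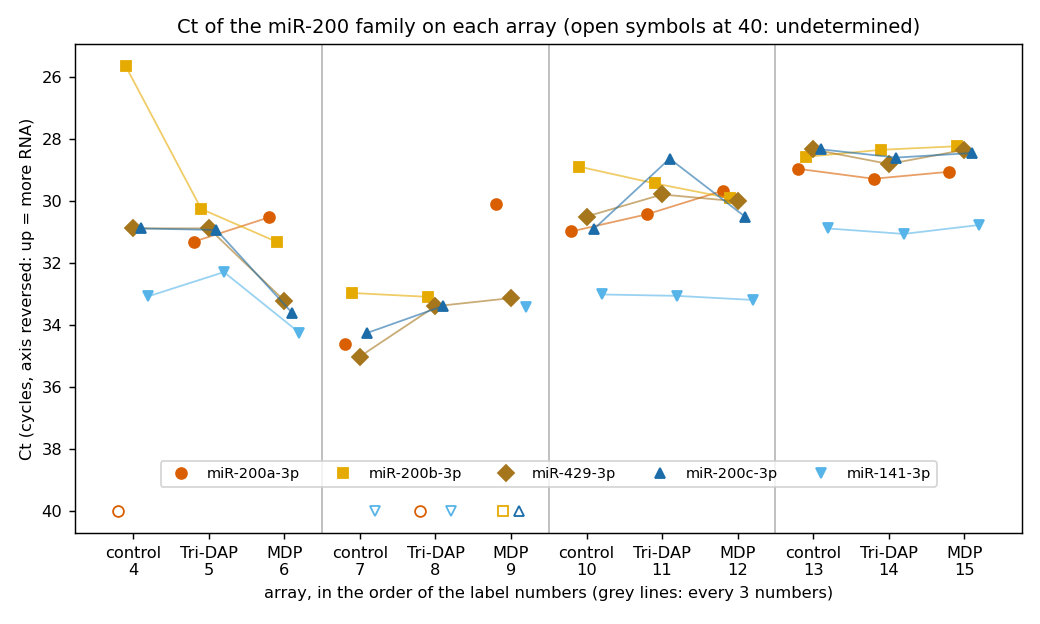
Ct (y axis, reversed so that up is more RNA) of the 5 members on each of the 12 arrays in the order of the label numbers (x axis), with grey lines between sets of 3 numbers, lines joining the arrays of a set and open symbols at 40 for undetermined wells. Each member sits highest on arrays 13 to 15, where the family has a median Ct of 28.6, except miR-200b-3p, which is highest on control array 4 at 25.6, and 5 of the 6 undetermined wells are on arrays 7 to 9.

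The level of the family differed between the sets of label numbers, though not in the order of the numbers. Its median Ct was 31.1 over the measured wells of arrays 4 to 6, 33.4 on arrays 7 to 9, 30.4 on arrays 10 to 12 and 28.6 on arrays 13 to 15. By group the medians were closer, at 30.9 in control cells, 30.6 after Tri-DAP and 30.5 after MDP. Each group held 2 undetermined wells of 20, whereas arrays 7 to 9 held 5 of 15, arrays 4 to 6 held 1, and arrays 10 to 15 held none.

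For a value per array that does not rest on U6, each member was expressed relative to the mean of the 174 miRNAs measured on every array, and the deviations of the measured members from their own means were averaged. This family profile, on the log2 scale, ran from 1.35 to 1.65 on arrays 13 to 15 and from 0.07 to 0.26 on arrays 10 to 12. It ran from -1.71 to 0.94 on arrays 4 to 6 and from -3.36 to -0.18 on arrays 7 to 9. The set 13 to 15 overlapped with no other set, while the set 10 to 12 lay within the range of the set 4 to 6, which also overlapped with the set 7 to 9. By group the profile spanned -3.36 to 1.46 in control cells, -1.78 to 1.35 after Tri-DAP and -1.71 to 1.65 after MDP, ranges that overlapped over most of their length.

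The share of a member's variance that lay between the sets of numbers was 79.9% for miR-429-3p, 75.3% for miR-200c-3p and 75.01% for miR-141-3p. It was 48.2% for miR-200b-3p and 35.9% for miR-200a-3p. The share between the treatment groups was 26.6% for miR-200a-3p and between 2.17% and 7.83% for the other 4. Dependence on the number set was common on these arrays and not particular to the family, since over the 207 miRNAs measured on at least 10 arrays the median share was 61.6% between sets, with quartiles of 35.5% and 84.7%, and 5.71% between groups. The size of the variation was large for most members, with an SD across arrays of 1.94 for miR-200b-3p, 1.87 for miR-200c-3p, 1.86 for miR-429-3p, 1.48 for miR-200a-3p and 1.06 for miR-141-3p on the log2 scale, beside a median of 0.75 and an upper quartile of 1.25 over the same 207 miRNAs.

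Tri-DAP was set against control to ask which miRNAs respond to NOD1. None of the members rose or fell past the threshold, an unadjusted p under 0.05 in a limma fit over all miRNAs and all 12 arrays. The count was 0 of 5 beside 4 of 237 miRNAs tested, or 1.69%. Relative to U6, the mean of miR-200b-3p was -9.36 ± 2.91 (SD, n = 4) on the control arrays, spanning -12.92 to -5.81, and -10.74 ± 0.59 (SD, n = 4) on the Tri-DAP arrays, spanning -11.48 to -10.06. The Tri-DAP values thus lay within the range of the controls. By limma the log2 fold change was -1.38, with a standard error of 1.22 and an adjusted p of 0.998. It was -0.19 without control array 4, the array of the early well, and -2.56, past the unadjusted threshold, without control array 7. The other 4 members had log2 fold changes between -0.49 for miR-141-3p and 0.59 for miR-200c-3p, with standard errors between 1.01 and 1.21. The median of the 5 was 0.35, beside -0.24 over all miRNAs tested.

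MDP was set against control to ask the same of NOD2. Here miR-200a-3p was the member that had drawn attention, and its difference is a description. Relative to U6 it averaged -11.93 ± 2.54 (SD, n = 3) on the control arrays and -10.17 ± 0.66 (SD, n = 4) on the MDP arrays, 1.76 higher on the log2 scale in the fit, with a standard error of 1.02. The control arrays that measured it spanned -14.56 to -9.50 and the MDP arrays -10.95 to -9.34, so the groups overlapped. The other members differed by -0.90 (standard error 1.33) for miR-200b-3p, -0.44 (0.95) for miR-141-3p, 0.14 (1.26) for miR-200c-3p and 0.02 (1.21) for miR-429-3p. Without control array 4 the value of miR-200b-3p was 0.28. The count called was 0 of 5, beside 3 of 244 miRNAs, or 1.23%. The fitted value of miR-200a-3p moved with single control arrays and fell to 0.44 without control array 7, which held its latest measured value, and rose to 2.97, past the unadjusted threshold, without control array 13.

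Within the sets of 3 numbers, miR-200a-3p was higher after MDP than in control cells in each of the 3 sets that measured both, by 4.49 in the set 7 to 9, 0.76 in the set 10 to 12 and 0.16 in the set 13 to 15, relative to U6. The set 7 to 9 thus carried most of the mean difference. None of the other members differed in a single direction between MDP and control in all sets that measured it.

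MDP and Tri-DAP were compared directly, a comparison that uses the MDP arrays again, with the controls entering only through the shared estimate of the spread, and so is no independent check on miR-200a-3p. The count called was 0 of 5, beside 7 of 241 miRNAs, or 2.90%, all 7 of them higher after MDP. For miR-200a-3p the log2 fold change was 1.33, with a standard error of 1.02 and an adjusted p of 0.998 by limma. It passed the unadjusted threshold only where each miRNA was tested alone, without the spread that limma shares across miRNAs. Relative to U6 its 4 MDP values, from -10.95 to -9.34, lay above its 3 Tri-DAP values, from -11.86 to -10.99, with the remaining Tri-DAP array undetermined. Relative to the mean miRNA the groups overlapped, with Tri-DAP array 14 at -0.96 above MDP arrays 6 and 12 at -1.89 and -1.15. Within the number sets miR-200a-3p was higher after MDP in 3 of 3, by 0.91 to 1.65 relative to U6, and by a mean of 1.30. Relative to the mean miRNA the same 3 differences averaged 0.62. U6 was earlier on Tri-DAP array 14 than on MDP array 15, at 18.3 against 19.7 cycles, while the Ct of miR-200a-3p on these arrays was 29.3 and 29.0. The U6 wells of Tri-DAP array 14 had an SD of 1.93 cycles. The other members differed by -0.45 to 0.47 with standard errors of 0.95 to 1.33.

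**Figure D2:**
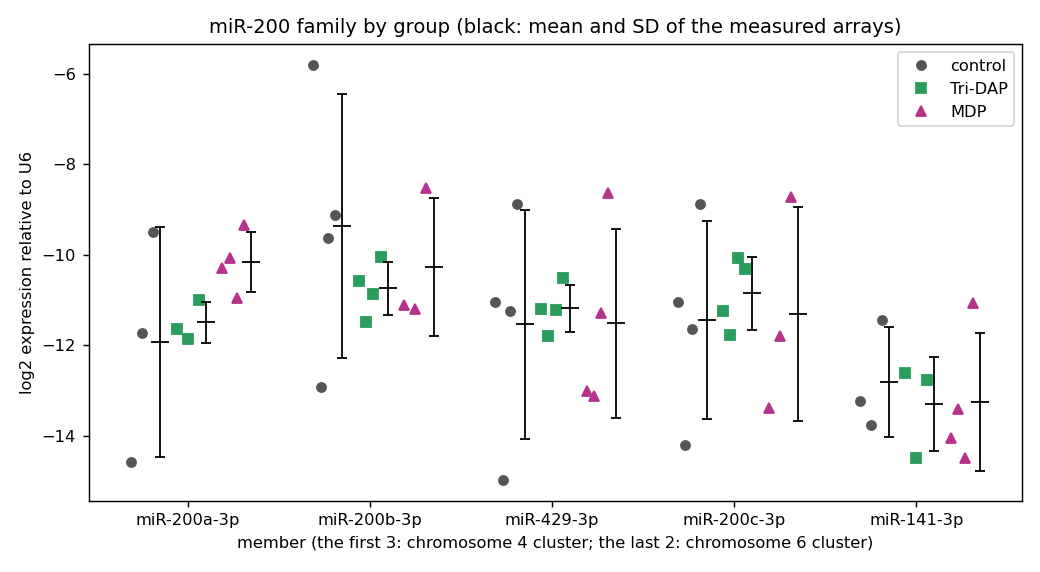
Log2 expression relative to U6 (y axis) of each member (x axis) on the control, Tri-DAP and MDP arrays that measured it, with the mean and SD of the group in black. The groups overlap for all members except miR-200a-3p between Tri-DAP and MDP, where the 4 MDP arrays lie at -10.95 or above and the 3 Tri-DAP arrays at -10.99 or below. Relative to the mean miRNA, which is not drawn, Tri-DAP and MDP overlapped for miR-200a-3p as well.

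**Figure D3:**
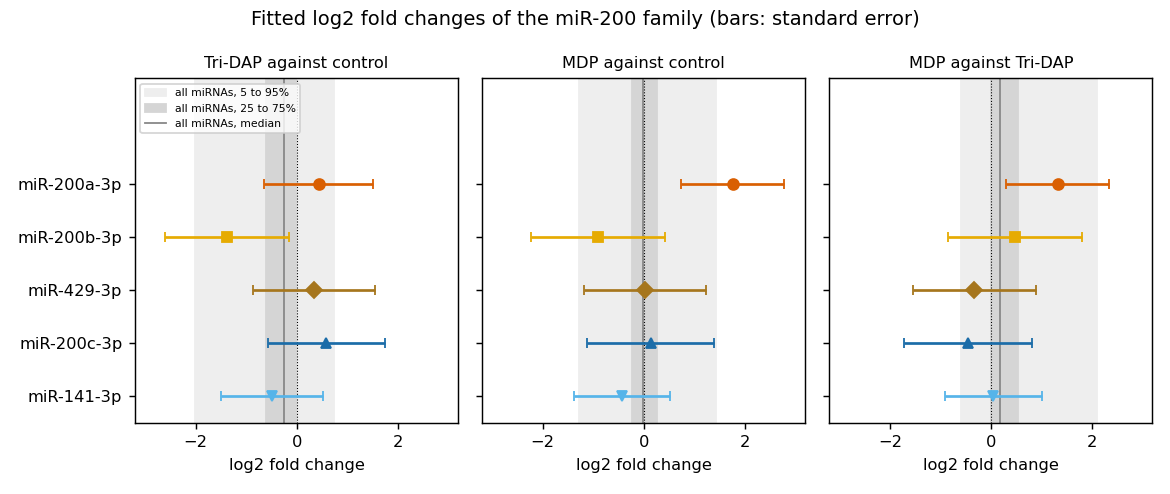
Fitted log2 fold change (x axis) of each member (y axis) in the 3 comparisons, with bars for the standard error and grey bands for the middle ranges of all miRNAs tested. miR-200a-3p lies farthest to the right after MDP, at 1.76 against control and 1.33 against Tri-DAP, and miR-200b-3p farthest to the left in both comparisons with control.

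The members were next compared with each other on the same array, where the reference cancels out. miR-429-3p and miR-200c-3p gave the closest match of the 10 pairs. They differed by 0.06 ± 0.50 cycles (SD, n = 11 arrays), and on 4 of the 11 arrays by under 0.1 cycle, at the closest by 0.003. MDP array 9, with miR-429-3p at a Ct of 33.1 and miR-200c-3p undetermined, gave no difference. Their genes lie on different chromosomes and their mature sequences differ at 5 of 22 positions, none of them in the seed. Among all pairs of 195 mouse miRNAs measured on at least 10 arrays, 6.71% had a smaller SD of the within-array difference and the median SD was 1.23 cycles. The pair was picked as the tightest of 10, so its place among all pairs is a description. By group, the Ct of miR-429-3p minus that of miR-200c-3p averaged 0.09 ± 0.49 (SD, n = 4) for control, 0.33 ± 0.56 (SD, n = 4) for Tri-DAP and -0.33 ± 0.21 (SD, n = 3) for MDP. The MDP values, from -0.50 to -0.10, lay below the Tri-DAP values, from -0.05 to 1.16, and within the control values, from -0.40 to 0.77, except for the lowest of them.

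Within the chromosome 4 cluster the match was looser. miR-200a-3p minus miR-429-3p was 0.23 ± 0.56 cycles (SD, n = 3) on the control arrays and 0.52 ± 0.11 (SD, n = 3) on the Tri-DAP arrays. On the MDP arrays it was -1.34 ± 1.82 (SD, n = 4), because the arrays of this group fell apart. On MDP arrays 6 and 9 the difference was -2.69 and -3.04, with miR-200a-3p ahead, while on MDP arrays 12 and 15 it was -0.34 and 0.70, close to the other groups. MDP arrays 6 and 9 belong to the number sets in which the control or the Tri-DAP array missed miR-200a-3p. miR-200b-3p minus miR-429-3p was -2.16 ± 2.28 (SD, n = 4) on the control arrays, with -5.24 on array 4, and -0.44 ± 0.14 (SD, n = 4) on the Tri-DAP arrays.

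**Figure D4:**
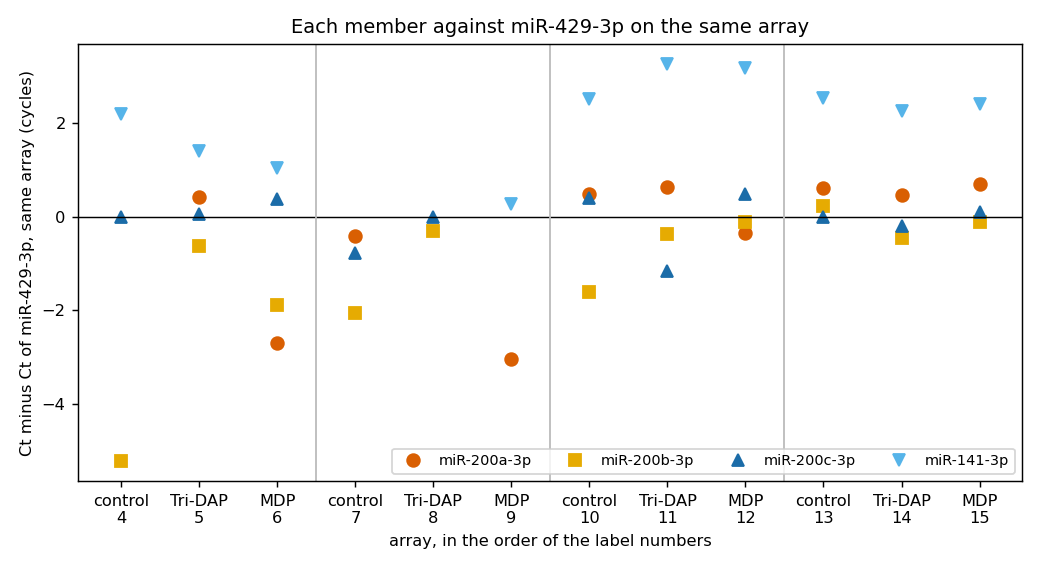
Ct of each member minus the Ct of miR-429-3p on the same array (y axis, cycles) by array in the order of the label numbers (x axis), where points below 0 are earlier than miR-429-3p. miR-200c-3p stays near 0 except on control array 7 and Tri-DAP array 11, where it is earlier than miR-429-3p by 0.77 and 1.16 cycles. It has no point on MDP array 9. miR-141-3p lies above 0 on every array that measured it. The points farthest below 0 are miR-200b-3p on control array 4, at -5.24, and miR-200a-3p on MDP arrays 6 and 9, at -2.69 and -3.04.

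The chromosome 4 cluster was compared with the chromosome 6 cluster as the mean Ct of miR-200a-3p, miR-200b-3p and miR-429-3p minus the mean Ct of miR-200c-3p and miR-141-3p, on the 8 arrays that measured all 5. The difference was below 0 on all 8, with the chromosome 4 cluster earlier, and miR-141-3p, the late assay, enters the other mean. It was -1.83 and -0.99 on control arrays 10 and 13. For Tri-DAP it was -0.80, -0.97 and -1.02 on arrays 5, 11 and 14. For MDP it was -2.24, -1.99 and -1.07 on arrays 6, 12 and 15. The 3 MDP values lay below the 3 Tri-DAP values, and the control values overlapped with both. With undetermined wells at Ct 40, which adds arrays 4, 7, 8 and 9, the MDP range of -2.30 to -1.07 and the Tri-DAP range of -1.20 to -0.80 overlapped. The group means were -1.41 ± 0.60 (SD, n = 2) for control, -0.93 ± 0.12 (SD, n = 3) for Tri-DAP and -1.77 ± 0.62 (SD, n = 3) for MDP, and arrays 4, 7, 8 and 9 gave no value.

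Divided by seed, the mean Ct of miR-200b-3p, miR-200c-3p and miR-429-3p minus that of miR-200a-3p and miR-141-3p was -1.71 ± 0.28 (SD, n = 2) for control, -1.72 ± 0.68 (SD, n = 3) for Tri-DAP and -0.84 ± 1.02 (SD, n = 3) for MDP. The value of MDP array 6 was 0.32, the only one above 0, and on that array miR-200a-3p was the earliest member.

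Across arrays the members varied together, whichever division was used. Relative to the mean miRNA, the Pearson correlation over the 9 to 11 arrays shared by a pair had a median of 0.72 over the 10 pairs and ranged from 0.32 for miR-200b-3p with miR-141-3p to 0.96 for miR-429-3p with miR-200c-3p, where Spearman's rho was also 0.96. Over all pairs of the 195 mouse miRNAs the median was 0.01. The members were known to vary together when the family was chosen, so lying above that median was built into the choice and is no test. Pairs of one cluster had a median of 0.74 and pairs from different clusters 0.68, while pairs with the same seed had a median of 0.65 and pairs with different seeds 0.75. Neither division marked off the more alike pairs. These values are descriptions, since arrays of a number set may share cells and all miRNAs of an array share its reference. Without control array 7 and Tri-DAP array 8, which lay farthest from the median profile, the median correlation was 0.50, and for miR-429-3p with miR-200c-3p it was 0.95. Around the means of the number sets the median was also 0.50, with a range from -0.21 to 0.86. The lowest of these values were those of miR-200a-3p, at -0.21 with miR-200b-3p, -0.17 with miR-141-3p and 0.035 with miR-200c-3p. With miR-429-3p it had 0.54.

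The mouse miRNAs outside the family whose values were most like the family profile, among 165 measured on all 12 arrays, were miR-93 with a Pearson correlation of 0.86, miR-214 with 0.85, miR-145 with 0.82, miR-503 with 0.80 and miR-143 with 0.79. Among these are 3 of the 4 miRNAs listed as markers of mural cells and fibroblasts, which wrap or surround vessels and are rich in miR-143 and miR-145. The summed level of that list, of which all 4 miRNAs were measured on all 12 arrays, moved with the family. On the log2 scale relative to the mean miRNA it was 1.20 to 1.38 on arrays 7 to 9, 2.28 to 2.75 on arrays 4 to 6, 3.57 to 3.81 on arrays 10 to 12 and 6.29 to 6.45 on arrays 13 to 15. This is the order of the family's median Ct, from the latest set to the earliest. The correlation with the family profile over the 12 arrays was 0.81 by Pearson and 0.88 by Spearman. It rests mostly on differences between sets, which held 97.1% of the variance of miR-214, 97.2% of miR-145, 97.6% of miR-143 and 98.5% of miR-199a-3p. Around the means of the number sets, the correlation with the profile was 0.78 for miR-214, 0.43 for miR-145 and 0.25 for miR-143. It was 0.73 for miR-93 and 0.62 for miR-503. The marker lists were chosen with earlier results of these data known, so their correlations with the profile are descriptions and no test.

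The endothelial pair miR-126-3p and miR-126-5p was lowest where the family was highest, with a summed level of 8.11 to 8.23 on arrays 13 to 15 against 9.33 to 10.3 on the other 9 arrays, and a Pearson correlation of -0.74 with the profile. The leukocyte list of 4 miRNAs had a summed level between -1.44 and 0.10 over all arrays, and miR-142-5p of that list was measured on 2 arrays only. In bulk RNA, fewer cells of a type and less RNA per cell cannot be told apart, and the part of other cell types in the level of the family was not tested. None of these marker levels separated the treatment groups, and the mural and fibroblast list spanned 1.20 to 6.45 in control cells, 1.27 to 6.43 after Tri-DAP and 1.38 to 6.29 after MDP.

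**Figure D5:**
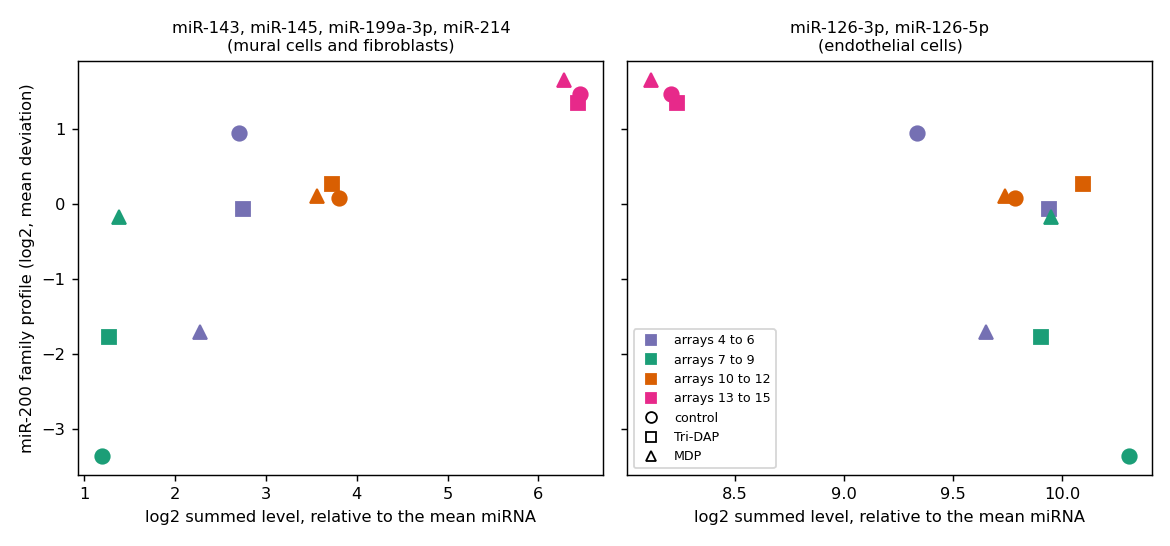
Family profile (y axis, log2) against the log2 summed level of mural and fibroblast miRNAs (left) and of both arms of miR-126 (right), each relative to the mean miRNA, with 1 point per array, colours for the sets of label numbers and symbols for the groups. Arrays 13 to 15 lie apart in both panels, with mural and fibroblast levels of 6.29 to 6.45 and miR-126 levels of 8.11 to 8.23.

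Other miRNAs known from epithelial cells did not move as a single group. Of the 11 listed, miR-203, miR-182, miR-31, miR-34b-3p, miR-34c and miR-449a were measured on all 12 arrays. miR-205, a marker of basal and squamous epithelium, was measured on 1 array only, Tri-DAP array 5, at a Ct of 27.5, and miR-375, of neuroendocrine and secretory epithelium, on 6 arrays at 33.4 to 35.4. miR-182 and miR-449a had their single earliest Ct, 28.8 and 31.7, on arrays 13 to 15. Their single latest, 32.6 and 35.3, came on arrays 7 to 9. These sets overlapped, as miR-182 reached 31.8 on arrays 13 to 15 and miR-449a was as early as 32.0 on arrays 7 to 9. The share of variance between sets was 26.5% for miR-182 and 21.4% for miR-449a. miR-203 had both its earliest and its latest Ct, 31.9 and 34.8, on arrays 13 to 15. miR-31, by far the earliest of the list at a Ct of 21.6 to 24.7, had its latest values on arrays 13 to 15. The summed level of the list, which is in essence that of miR-31, was lowest on arrays 13 to 15, at 4.04 to 4.37, against 5.998 to 7.28 on the others, and its Pearson correlation with the family profile was -0.64. Averaged without weights, the 6 that no array missed varied little, from -1.33 to -0.62 on the log2 scale. In the limma fit 0 of the 8 tested members of the list were called after Tri-DAP, 0 of 8 after MDP and 0 of 7 between the ligands, with a median log2 fold change of -0.38, -0.16 and 0.10, beside -0.24, -0.02 and 0.18 over all miRNAs.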

How the data were processed

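Pulmonary endothelial cell RNA was measured on 12 TLDAs, 4 per group, with groups and numbers taken from the labels. The authors deposited Ct values in cycles, a score that is not normalized, with 40 for undetermined wells, and log2-scale values from which each array's own U6 level, averaged over 4 wells, had been subtracted, as was checked here to within 5.33e-15. The deposited fold changes were not used. 12 unnamed value columns were not used.

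The sign of the normalized values was reversed, so that higher means more RNA, and wells at 40 were treated as missing. limma 3.58.1 (R 4.3.3) was fitted to all 12 arrays without a block, and miRNAs with at least 2 measured values in each group compared were called at an unadjusted p under 0.05, with Benjamini-Hochberg adjusted p-values over all miRNAs tested. The fit was tested on simulated data, drawn independently for each array and without differences between number sets. That simulation therefore does not cover the dependence on number sets described above. The members and lists were chosen with earlier results of these data known. Named were the 5 members, the listed marker miRNAs, the references, and the 5 miRNAs most correlated with the family profile. Alternatives covered the reference, undetermined wells and those above Ct 35, the filter, the groups in the fit, the test, a block for the number sets, and each array left out. The fits without a whole number set and the description by number sets were chosen after seeing the data. Precision is limited by the number of arrays, on which 231 to 254 miRNAs each were measured.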

Additional observations from a re-analysis of the deposited data

How the results depend on the processing

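No member was called in any comparison, except as follows, and where miRNAs had to be measured on all 12 arrays only 1 member, miR-429-3p, was tested. Between MDP and Tri-DAP 1 was called, miR-200a-3p, at 1.33, with a Student t-test per miRNA in place of limma. Leaving out each array in turn gave 0 to 1 for Tri-DAP and 0 to 1 for MDP against control. miR-200b-3p after Tri-DAP was called at -2.56 without control array 7. miR-200a-3p after MDP was called without control array 13, and without arrays 13 to 15, a setting that called 1 member and gave 2.70, whereas without arrays 7 to 9 it was 0.41. The calls of miR-200a-3p use the values that led to the choice of the family and are no test. The settings without a whole number set were chosen after seeing the data. The share called over all miRNAs is not given for the settings that called a member.

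Signs of small differences changed often. With number sets as a block, miR-200a-3p after Tri-DAP was -0.0204, miR-200c-3p after MDP -0.48 and miR-200b-3p between the ligands -0.24, and no member was called. Without arrays 7 to 9, miR-200a-3p, miR-429-3p and miR-200c-3p after Tri-DAP were -0.88, -0.59 and -0.0235, miR-429-3p and miR-200c-3p after MDP were -0.59 and -0.79, and miR-429-3p between the ligands was 0.0035. Without arrays 13 to 15, miR-429-3p and miR-200c-3p after MDP were -0.0526 and -0.29, and miR-200b-3p and miR-141-3p between the ligands were -0.17 and -0.42. With undetermined wells at Ct 40, miR-141-3p was 0.0257 after Tri-DAP and 1.35 after MDP, miR-200c-3p after MDP was -2.04 and miR-200b-3p between the ligands was -1.96. In the same setting other values kept their sign and grew. miR-200a-3p reached 3.82 for MDP against control and 3.05 between the ligands, its highest over all alternatives. miR-200b-3p after MDP was -3.33 and miR-200c-3p between the ligands -2.63, their lowest. These values rest on the 40 put in for undetermined wells and were not called. With wells above Ct 35 missing, the values of miR-429-3p were -0.79 with Tri-DAP and -1.12 with MDP, both against control. miR-141-3p after Tri-DAP was 0.12 relative to the mean miRNA and 0.19 without normalization, and between the ligands -0.53 and -0.77, or -0.30 relative to U6 and snoRNA202.

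Leaving out each array in turn, the log2 fold changes after Tri-DAP ranged from -0.88 to 1.65 for miR-200a-3p, -2.56 to -0.19 for miR-200b-3p, -0.79 to 1.24 for miR-429-3p, -0.33 to 1.44 for miR-200c-3p and -0.96 to 0.20 for miR-141-3p. After MDP they ranged from 0.44 to 2.97 for miR-200a-3p, -2.09 to 0.28 for miR-200b-3p, -1.12 to 0.91 for miR-429-3p, -1.15 to 1.18 for miR-200c-3p and -1.16 to 0.25 for miR-141-3p. Between the ligands they ranged from 1.05 to 1.59 for miR-200a-3p, -0.40 to 0.94 for miR-200b-3p, -1.29 to 0.20 for miR-429-3p, -1.74 to 0.59 for miR-200c-3p and -0.68 to 0.46 for miR-141-3p.

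Of the other epithelial miRNAs, 2 of 11 tested were called after Tri-DAP with undetermined wells at 40, and 1 of 8 with the t-test. After MDP, 1 was called with the t-test, with only the 2 groups in the fit, relative to the mean miRNA, relative to U6 and snoRNA202 and with 1 measured value per group, and 0 to 1 with an array left out. Between the ligands, 1 was called with undetermined wells at 40 and 2 with 1 measured value per group. The share called over all miRNAs is not given for these settings, so these counts are no result about the list.

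The cluster difference in control cells, after Tri-DAP and after MDP was -0.58, 0.33 and -0.36 for deviations of each member from its own mean, which by construction removes the level of each assay. It was -2.07, -0.11 and -1.03 for miR-200b-3p against miR-200c-3p, and for miR-200a-3p against miR-141-3p it was -1.80 for Tri-DAP and -3.07 for MDP. The seed difference was -0.90, -0.65 and 0.66 for such deviations and -3.51, -2.97 and 0.86 with undetermined wells at 40. The median correlation of pairs was 0.50 without the 2 farthest arrays, and that of miR-93 with the profile was 0.55 relative to U6. Where no cause is given by construction, the cause was not tested. Late Ct and undetermined wells limit what can be seen of the family.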
